A study of Mus musculus with 8 samples.

Results

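The liver-enriched transcription factor genes followed here are Hnf4a, Foxa1, Foxa2, Foxa3, Cebpa, Nr1h4, Nr5a2, Prox1 and Onecut1. These 9 genes were taken from a named list that was chosen with earlier results of these data known. Shares of them set against all probes or genes therefore describe this list and do not test it. They were matched to the array through the RefSeq accession of each probe, which gave 11 probes of 55681 that are no controls, and 9 of 20660 genes named on the array. Foxa2 and Nr5a2 have 2 probes each, and every probe is given apart. RNA was measured in BMEL, a line of bipotential mouse embryonic liver cells described in the labels as liver progenitor cells, hybridised in 1 colour to Agilent SurePrint G3 mouse arrays that share 1 slide. The arrays fall into 3 groups by medium: DIFF media (n = 2), CM (n = 3) and NoRX media (n = 3). All groups are the same line, and no genotype or transgene is given. The labels spell out none of the 3 names and give no composition or duration, while the series title speaks of media conditioned by human amniotic epithelial cells. Sample titles number the DIFF arrays 1 and 2, but their source names call both replicate 1. Whether replicates were separate cultures is not given, and each p-value therefore reflects only how these arrays spread, which may be technical.

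Hepatocyte identity rests on a small network of DNA-binding proteins that bind each other's genes as well as the genes of plasma proteins, lipid carriers and bile acid enzymes. FOXA proteins open closed chromatin early in liver specification, HNF4A is a nuclear receptor needed for hepatocyte differentiation, and C/EBPα drives metabolic genes while restraining division. Prox1 and Onecut1 act in the embryonic liver bud, where the bipotential hepatoblast gives rise to hepatocytes and bile duct cells, and the nuclear receptors FXR (Nr1h4) and LRH-1 (Nr5a2) govern bile acid synthesis and transport.

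Signals are Agilent processed signals, an intensity after background subtraction, and differences are on the log2 scale after each array's own 75th percentile was subtracted. That percentile lay between 701 and 974 and was highest on DIFF 2, where 46.4% of spots were well above background, against 50.8% to 53.5% on the other arrays. DIFF 2 also had 1159 spots marked for uneven local background, against 3 to 90 elsewhere, none of them a member's. A difference was called at an adjusted p under 0.05 from limma, fitted over 30356 probes. On this scale the median of all probes lay at -0.13 in DIFF minus NoRX, at -0.01 in CM minus NoRX and at -0.12 in DIFF minus CM, and with each array's median subtracted instead it lay at 0.03, -0.02 and 0.05. The median SD between arrays of a group was 0.21 for DIFF, 0.08 for CM and 0.09 for NoRX. Each probe's spread was estimated over the 3 groups together, so SEs and intervals of DIFF differences may understate the spread between the DIFF arrays. Signals of different probes cannot be set against each other. In bulk RNA, fewer cells of a type and less RNA per cell cannot be told apart.

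Of the 9 genes, 8 were well above background on all 8 arrays. Nr5a2, which encodes LRH-1, was the exception: its probes were well above background on 0 of 8 arrays. In CM against NoRX, 7 of 9 probes tested were called, 4 higher and 3 lower, where 42.3% of all probes were called, 20.8% higher and 21.5% lower. In DIFF against NoRX, 6 of 9 were called, 3 higher and 3 lower, against 32.8% of all probes, 10.1% higher and 22.8% lower. In DIFF against CM, 4 of 9 were called, 2 higher and 2 lower, against 49.3% of all probes, 19.5% higher and 29.8% lower. With each of the 8 genes counted once on its brightest probe, 4 were higher and 2 lower in CM against NoRX. There 25.7% of all genes were higher and 24.3% lower. In DIFF against NoRX 3 were higher and 2 lower (12.8% and 26.7% of all genes), and in DIFF against CM 1 and 2 (22.8% and 34.6%). Foxa1, Cebpa and Prox1 were higher and Hnf4a and Foxa2 lower in both media than in NoRX. The comparisons against NoRX share the NoRX arrays, so their common directions are not independent.

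**Figure D1:**
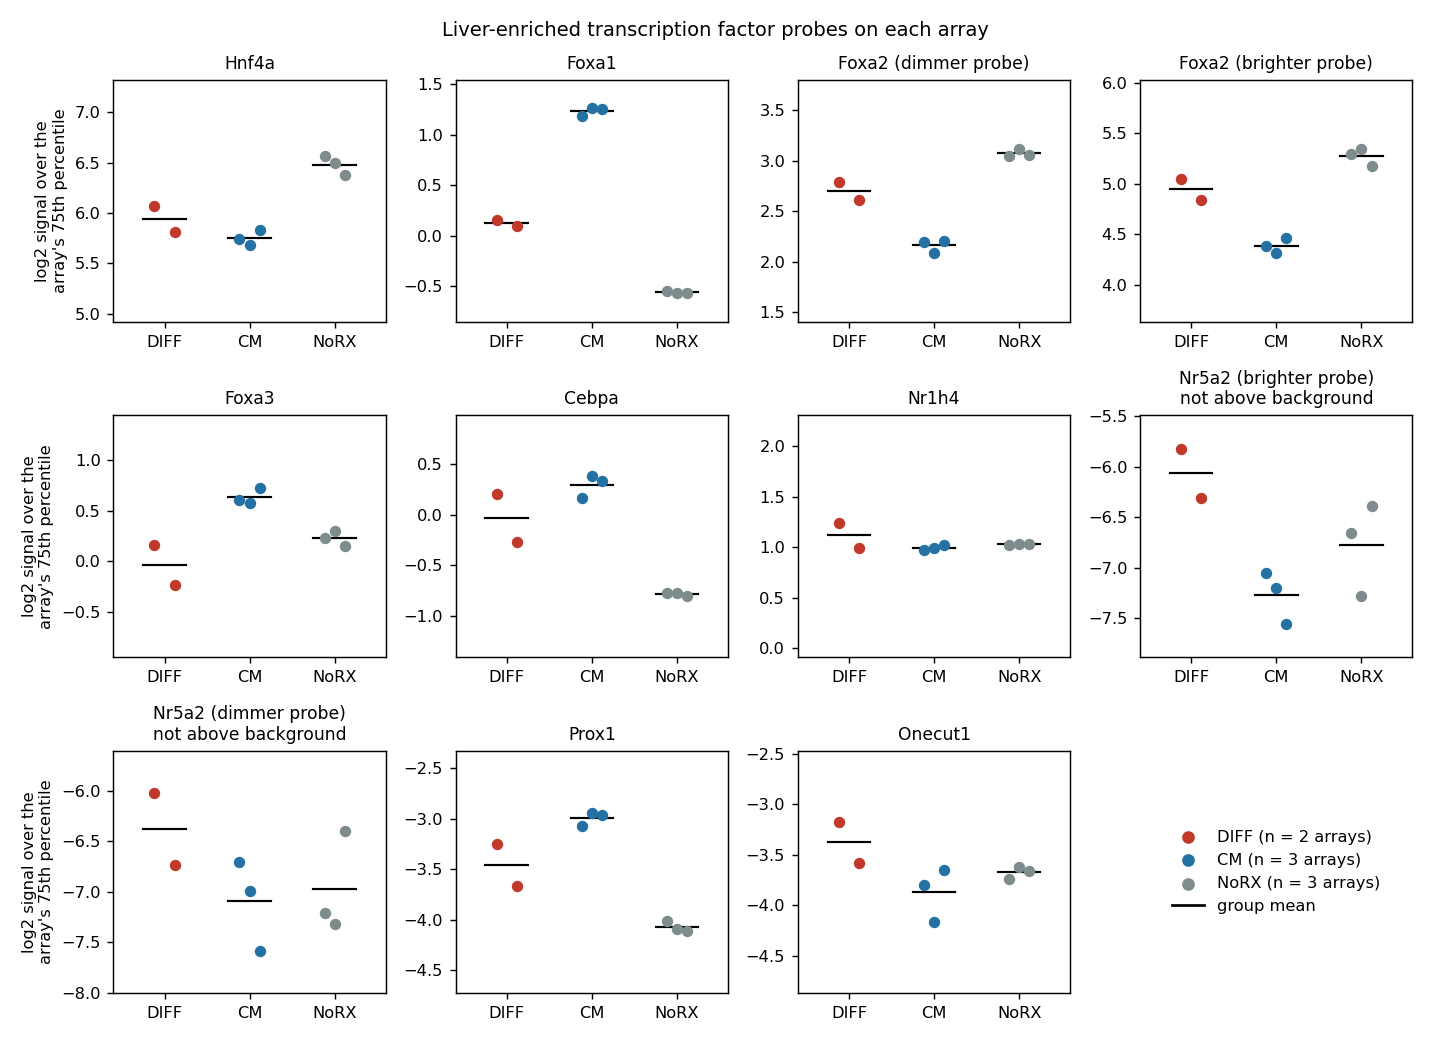
Log2 processed signal over the array's 75th percentile for each of the 11 probes, with 1 point per array and a line at the group mean, for DIFF (n = 2), CM (n = 3) and NoRX (n = 3). Foxa1, Cebpa and Prox1 sit lowest and Hnf4a and Foxa2 highest in NoRX, and the panels of both Nr5a2 probes show values not above background.

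Foxa1, a pioneer factor that binds closed chromatin at liver enhancers, had the largest difference among these genes in CM against NoRX and in DIFF against CM. Its probe read 828 and 1041 on the DIFF arrays, 1838, 1878 and 2026 on the CM arrays, and 523, 499 and 471 on the NoRX arrays. The groups did not overlap, with CM highest, DIFF between and NoRX lowest. Foxa1 was 3.47-fold higher in CM than in NoRX (log2 difference 1.79 ± 0.07 SE, adjusted p = 1.35e-07) and 1.61-fold higher in DIFF than in NoRX (0.69 ± 0.07, adjusted p = 7.5e-05). DIFF lay 2.15-fold below CM (-1.11 ± 0.07, adjusted p = 1.51e-06). In CM against NoRX its p-value ranked 61 among all probes tested.

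Foxa2, the closely related factor needed for bile acid homeostasis in the adult liver, moved the other way on both of its probes. The dimmer probe read 5150 and 5970 in DIFF, 3704, 3335 and 3942 in CM, and 6329, 6421 and 5851 in NoRX. The brighter probe read 24627 and 27914 in DIFF, 16871, 15580 and 18831 in CM, and 29987, 30119 and 25309 in NoRX. On both, the CM arrays were lowest without overlap, whereas the processed signals of DIFF and NoRX overlapped and separated only after the 75th percentile was subtracted. In CM against NoRX the probes were 1.88-fold and 1.85-fold lower (-0.91 ± 0.07, adjusted p = 8.34e-06, and -0.89 ± 0.08, adjusted p = 2.04e-05). In DIFF against NoRX the differences were -0.37 ± 0.08 (adjusted p = 0.00514) and -0.33 ± 0.09 (adjusted p = 0.018), or -0.25 and -0.20 relative to the median of all probes. Both of these calls were lost with median centring (adjusted p = 0.244 and 0.409), with the row of the slide as a block (0.211 and 0.253) and with array weights (0.0541 and 0.131), and the brighter probe's call also without NoRX 1 (0.0601), NoRX 2 (0.0742) or DIFF 2 (0.0532) and with a fit of the 2 groups alone (0.0612). DIFF lay above CM by 0.54 ± 0.08 (adjusted p = 3.11e-04) and 0.56 ± 0.09 (adjusted p = 5.4e-04). The brighter probe stood 2.11 to 2.26 log2 units above the dimmer on each of the 8 arrays, so that both measured the same differences between media.

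Foxa3, the FOXA member best known for maintaining gene expression in differentiated hepatocytes, read 835 and 826 in DIFF, 1236, 1164 and 1411 in CM, and 898, 907 and 777 in NoRX. CM was highest without overlap, and DIFF and NoRX overlapped. It was 1.33-fold higher in CM than in NoRX (0.41 ± 0.11, adjusted p = 0.0113), a call that was lost without CM 3 (0.37, adjusted p = 0.0505) and with the row of the slide as a block (0.38, adjusted p = 0.12). In DIFF it was 1.59-fold lower than in CM (-0.67 ± 0.12, adjusted p = 0.00108). Against NoRX the DIFF value of -0.26 (95% interval -0.53 to 0.01) did not pass (adjusted p = 0.124), though it did without DIFF 1 (-0.46, adjusted p = 0.00237). The 3 FOXA genes thus differed in where CM stood: it was highest for Foxa1 and Foxa3 and lowest for Foxa2.

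Hnf4a, the nuclear receptor that occupies many hepatocyte promoters, read 49993 and 54702 in DIFF, 43256, 40115 and 48414 in CM, and 72157, 66688 and 58152 in NoRX. Every NoRX array lay above every array of the other media. Hnf4a was 1.66-fold lower in CM than in NoRX (-0.73 ± 0.08, adjusted p = 1.06e-04) and 1.45-fold lower in DIFF than in NoRX (-0.54 ± 0.09, adjusted p = 0.00188). The DIFF call was lost with median centring (-0.38, adjusted p = 0.0582) and with the row of the slide as a block (-0.55, adjusted p = 0.0751). Between DIFF and CM the difference of 0.19 (95% interval -0.02 to 0.40) did not pass (adjusted p = 0.123), but it passed with median centring (0.36), quantile normalization (0.26) and the 75th percentile of probes detected on all arrays (0.31), and without DIFF 2 (0.32).

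Nr1h4 encodes FXR, the nuclear receptor that senses bile acids and represses their synthesis. Its signal was 1766 and 1944 in DIFF, 1590, 1554 and 1728 in CM, and 1552, 1508 and 1438 in NoRX. The DIFF arrays read higher than all others before scaling. After scaling the differences were 0.09 (95% interval -0.10 to 0.28) in DIFF minus NoRX, -0.03 (-0.21 to 0.14) in CM minus NoRX and 0.13 (-0.06 to 0.32) in DIFF minus CM. None passed (adjusted p = 0.445, 0.756 and 0.247), and the intervals reach no farther from 0 than 0.32. With the 75th percentile of probes detected on all arrays, DIFF passed against NoRX (0.14, adjusted p = 0.0358) and CM (0.25, adjusted p = 0.00152) and CM against NoRX (-0.11, adjusted p = 0.0488), and without DIFF 2 the DIFF differences also passed (0.22, adjusted p = 0.0136, and 0.25, adjusted p = 0.0043).

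Nr5a2 encodes LRH-1, an orphan nuclear receptor that activates bile acid synthesis genes. Its 2 probes gave signals of 12.3 and 13.2 and of 9.14 and 11.5 in DIFF, of 4.52 to 6.10 and 4.43 to 7.79 in CM, and of 4.75 to 8.35 and 4.64 to 8.31 in NoRX. The lowest signal called well above background was between 18.9 and 43.2 on any array, so all of these values lay under that limit. No fold is given, and neither probe was tested.

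Cebpa encodes C/EBPα, a leucine zipper factor of mature hepatocytes. It read 858 and 807 in DIFF, 910, 1018 and 1071 in CM, and 447, 433 and 400 in NoRX. All arrays of both other media lay above the NoRX arrays. Cebpa was 2.11-fold higher in CM than in NoRX (1.08 ± 0.12, adjusted p = 7.53e-05) and 1.68-fold higher in DIFF than in NoRX (0.75 ± 0.13, adjusted p = 0.00188). The DIFF call was lost with the row of the slide as a block (0.56, adjusted p = 0.157). In DIFF minus CM the value was -0.33 (95% interval -0.62 to -0.03), which missed the threshold after adjustment (adjusted p = 0.0672) and passed without DIFF 1 (-0.56).

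Prox1 encodes a homeodomain factor of the early liver bud that also acts as a corepressor of HNF4A. Its probe was dim, at 78.5 and 76.7 in DIFF, 96.5, 102 and 109 in CM, and 47.4, 43.4 and 40.7 in NoRX, yet well above background on each array. The 3 groups did not overlap, with CM highest and NoRX lowest. Prox1 was 2.11-fold higher in CM than in NoRX (1.08 ± 0.16, adjusted p = 5.84e-04); with another background correction, normexp on the median spot signals, the difference was 0.44 and still passed. In DIFF it was 1.53-fold higher than in NoRX (0.61 ± 0.18, adjusted p = 0.0291), a call that 11 of 23 alternatives did not keep. It was lost with array weights (adjusted p = 0.211), the row of the slide as a block (0.419) and the replicate block (0.073). Losses also came with no filter on dim probes (0.112) and with a fit of the 2 groups alone (0.101). So did leaving out NoRX 1, NoRX 2, NoRX 3, CM 2, CM 3 or DIFF 1 (0.054 to 0.0969). DIFF minus CM was -0.46 (95% interval -0.88 to -0.05, adjusted p = 0.0618), passed without DIFF 1 (-0.67) and turned to 0.10 with normexp.

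Onecut1, the HNF6 gene, encodes a factor of hepatoblasts and of bile duct formation. Its probe read 82.7 and 81.5 in DIFF, 58.2, 43.7 and 67.8 in CM, and 57.4, 60.3 and 55.3 in NoRX. DIFF lay above the other groups, and the CM arrays spread on both sides of NoRX. No comparison passed: DIFF minus NoRX was 0.30 (95% interval -0.20 to 0.79, adjusted p = 0.337), CM minus NoRX -0.20 (-0.64 to 0.24, adjusted p = 0.461) and DIFF minus CM 0.50 (0.00 to 0.99, adjusted p = 0.0893). The last passed under 5 of 24 alternatives, among them median centring (0.67) and leaving out DIFF 2 (0.70).

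**Figure D2:**
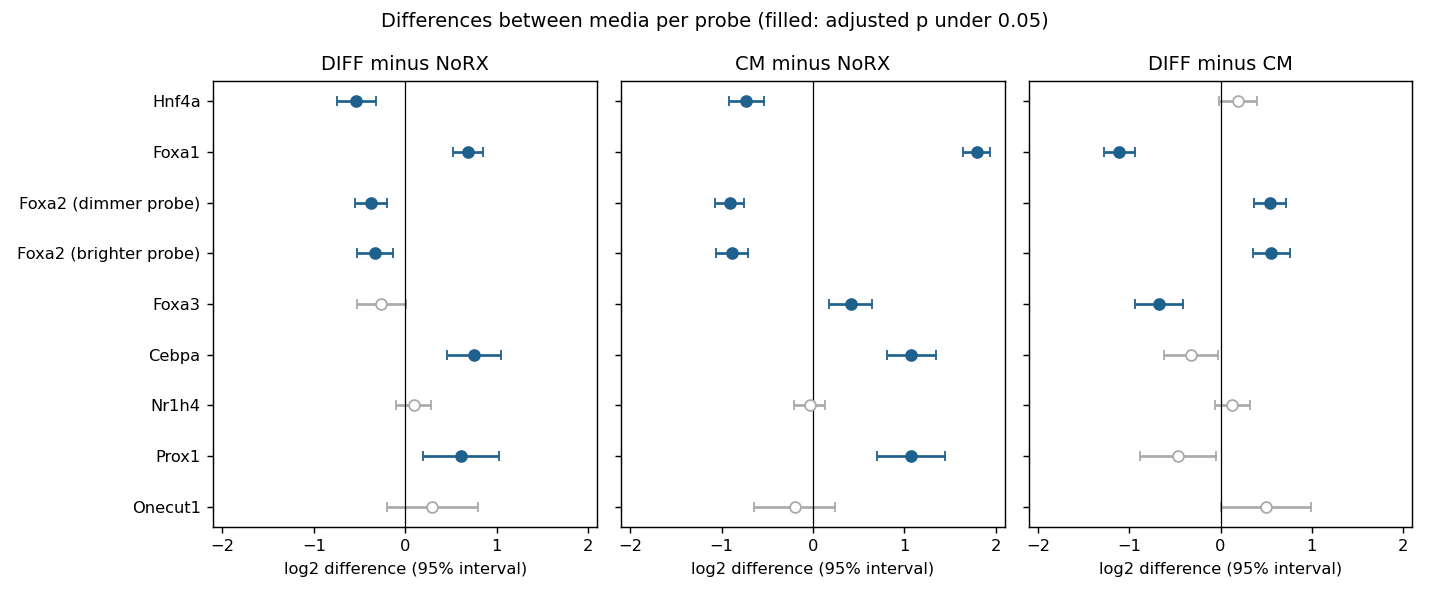
Log2 differences with 95% intervals for the 9 probes tested, in DIFF minus NoRX, CM minus NoRX and DIFF minus CM, with filled points where the adjusted p was under 0.05. Foxa1 lies farthest from 0 in CM minus NoRX at 1.79 and in DIFF minus CM at -1.11, and Nr1h4 lies nearest to 0 in each panel.

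Set among all probes, the changes of these genes were spread over both sides of the distribution. In CM minus NoRX, Foxa1 stood above 97.9% of the probes tested, and Cebpa and Prox1 above 94.0% of them, while the Foxa2 probes stood above 6.93% and 7.28% and Hnf4a above 10.1%. In DIFF minus NoRX the range was narrower, with Cebpa above 92.6% of probes and Hnf4a above 18.4%. The median difference of the 9 probes was 0.09 in DIFF minus NoRX, -0.03 in CM minus NoRX and 0.13 in DIFF minus CM. With Foxa2 counted once, on its brighter probe, the medians of the 8 genes were 0.19, 0.19 and -0.10. The median of so few genes thus depends on how Foxa2 is counted and gives no direction for the set. Values did not overlap between groups for 8 of 9 probes in CM against NoRX, where 62.8% of all probes did not, for 7 in DIFF against NoRX (52.5%) and for 6 in DIFF against CM (63.1%).

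**Figure D3:**
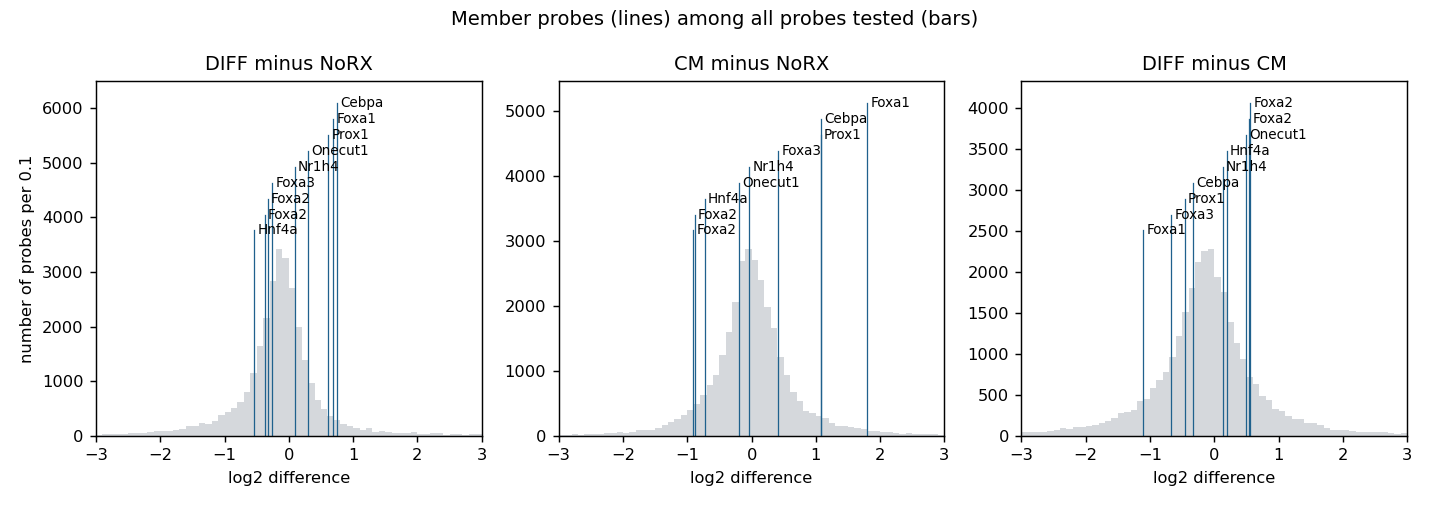
Number of probes per 0.1 of log2 difference over all 30356 probes tested (bars), with the 9 probes of the liver-enriched factors as labelled lines, in DIFF minus NoRX, CM minus NoRX and DIFF minus CM. The lines fall on both sides of 0 in each panel, and Foxa1 stands outermost in CM minus NoRX.

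The arrays lie in 2 rows of the slide, with NoRX 1 to 3 and CM 1 in one and CM 2, CM 3, DIFF 1 and DIFF 2 in the other. Within the first row, where CM 1 stands alone against the 3 NoRX arrays and is assumed to vary as they do, CM minus NoRX was -0.74 for Hnf4a, 1.74 for Foxa1, -0.88 and -0.89 for Foxa2, 0.38 for Foxa3, 0.95 for Cebpa and 1.00 for Prox1, and the same 7 probes passed. Within the second row, DIFF minus CM was -1.13 for Foxa1, 0.55 for both Foxa2 probes and -0.69 for Foxa3, and these 4 probes passed. No row holds both DIFF and NoRX, so that comparison has no value within a row. With the row as a block it rests on CM as the link, and Foxa1 alone passed (0.61, adjusted p = 0.0206).

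Start sites for all 9 genes were found in RefSeq's GRCm38.p6 annotation, 14 in all, and the 250 bases before each were searched for 10 short motifs on both strands. The windows shown are the most upstream start of the genes that differed from NoRX in both media, with both starts for Hnf4a, which lie 40.3 kb apart. Sequences run 5′ to 3′ on the strand of the gene, and capitals mark a match to any of the motifs TGTTTAC and TGTTTGC (FOXA), ATCGAT (ONECUT), GTTAAT (HNF1 core), TTGCNNAA (C/EBP), AGGTCA (nuclear receptor core), CAAAGTCCA (HNF4), GGGCGG (GC box), TATAAA and CACGTG.
Foxa1 (chr12:57546112-57546361, minus strand): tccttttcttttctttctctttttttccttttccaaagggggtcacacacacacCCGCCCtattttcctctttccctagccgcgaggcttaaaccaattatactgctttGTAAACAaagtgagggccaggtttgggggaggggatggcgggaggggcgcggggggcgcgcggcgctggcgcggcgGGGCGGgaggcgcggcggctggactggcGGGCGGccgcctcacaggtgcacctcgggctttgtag
Cebpa (chr7:35119043-35119292, plus strand): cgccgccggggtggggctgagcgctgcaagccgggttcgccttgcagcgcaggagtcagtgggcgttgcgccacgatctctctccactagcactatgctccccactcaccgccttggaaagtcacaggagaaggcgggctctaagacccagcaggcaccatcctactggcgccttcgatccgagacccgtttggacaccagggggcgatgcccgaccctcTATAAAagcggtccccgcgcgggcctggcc
Prox1 (chr1:190170828-190171077, minus strand): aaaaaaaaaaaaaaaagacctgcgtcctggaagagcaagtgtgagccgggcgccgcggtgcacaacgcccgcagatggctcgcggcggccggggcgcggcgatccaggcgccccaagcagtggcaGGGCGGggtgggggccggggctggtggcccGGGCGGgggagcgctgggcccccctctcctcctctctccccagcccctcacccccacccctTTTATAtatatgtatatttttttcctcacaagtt
Hnf4a, upstream start (chr2:163506607-163506856, plus strand): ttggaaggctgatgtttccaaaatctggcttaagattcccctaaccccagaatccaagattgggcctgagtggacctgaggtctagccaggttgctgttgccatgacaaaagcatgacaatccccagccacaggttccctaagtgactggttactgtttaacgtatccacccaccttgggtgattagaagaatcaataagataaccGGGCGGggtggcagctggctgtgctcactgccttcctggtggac
Hnf4a, downstream start (chr2:163546905-163547154, plus strand): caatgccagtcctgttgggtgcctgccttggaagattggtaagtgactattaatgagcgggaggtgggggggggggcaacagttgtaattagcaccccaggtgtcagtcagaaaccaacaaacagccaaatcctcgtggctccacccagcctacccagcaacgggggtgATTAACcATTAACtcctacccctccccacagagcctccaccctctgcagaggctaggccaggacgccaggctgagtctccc
Foxa2, most upstream start (chr2:148046970-148047219, minus strand): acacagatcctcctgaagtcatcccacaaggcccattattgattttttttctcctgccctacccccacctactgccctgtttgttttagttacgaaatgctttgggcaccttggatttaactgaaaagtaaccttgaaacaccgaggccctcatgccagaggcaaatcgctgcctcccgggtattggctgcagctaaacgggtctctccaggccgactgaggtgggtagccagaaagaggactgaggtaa
The FOXA letters TGTTTAC occur once before Foxa1, on the opposite strand from position -141, and in 3.17% of all 32851 windows of this length. Before the downstream start of Hnf4a the HNF1 core occurs at 2 places, from positions -81 and -74 on the opposite strand; 6.43% of all windows hold it at least once. GGGCGG, held by 32.7% of windows, is present before Foxa1, Prox1 and the upstream start of Hnf4a, and TATAAA, held by 12.4%, before Cebpa from -30 on the strand of the gene and before Prox1 from -34 on the opposite strand. The most upstream Foxa2 window holds none of the 10 motifs. Of the windows not shown, the second Foxa2 start has 2 GC boxes, the third has an HNF1 core, a GC box and a TATA match, all on the opposite strand, and the second Prox1 start has TGTTTGC from -120 and a GC box. A match is a description of the letters and not a bound site. Hnf4a has a single probe here, and which start its transcripts came from was not analysed here.

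Genes beside the members were read from the brightest of their own probes, and not every neighbour is given. Their calls are given without the alternatives. Among all genes on their brightest probe 50% were called in CM against NoRX, 39.5% in DIFF against NoRX and 57.3% in DIFF against CM. Hnf4aos, a long noncoding RNA gene that overlaps Hnf4a, had signals relative to the 75th percentile of 0.223 and 0.177 in DIFF, 0.173, 0.0874 and 0.0872 in CM, and 0.211, 0.206 and 0.208 in NoRX. It was lower in CM than in NoRX (-0.93, adjusted p = 0.0129), with CM 1 apart from CM 2 and CM 3, while DIFF minus NoRX was -0.07 (adjusted p = 0.874). R3hdml, 4.19 kb from Hnf4a, was lower in DIFF (-1.02, adjusted p = 5.57e-05) and in CM (-1.33, adjusted p = 4.63e-06) than in NoRX. Ttpal, 29.4 kb away on the other side, was higher in DIFF (0.27, adjusted p = 0.0206) and lower in CM (-0.41, adjusted p = 9.4e-04) than in NoRX. Mipol1, 83.4 kb from Foxa1, was higher in CM than in NoRX (1.30, adjusted p = 2.39e-06) and did not pass in DIFF against NoRX (0.21, adjusted p = 0.108). Sympk, 0.838 kb from Foxa3, was higher in CM than in NoRX (0.59, adjusted p = 5.66e-04). It was lower in DIFF than in CM (-0.59, adjusted p = 8.44e-04), both in the direction of Foxa3. Irf2bp1, 6.52 kb from Foxa3 on the other side, did not pass in any comparison. Cebpg, 62.7 kb from Cebpa, was higher in CM than in NoRX (0.41, adjusted p = 7.98e-04) and did not pass in DIFF against NoRX (adjusted p = 0.972). Smyd2, 195.5 kb from Prox1, was lower in both media than in NoRX (-0.45, adjusted p = 0.00271 in DIFF, and -0.81, adjusted p = 2.86e-05 in CM), opposite in direction to Prox1. Wdr72, 578.7 kb from Onecut1, was higher in CM than in NoRX (1.42, adjusted p = 7.99e-04) and lower in DIFF than in NoRX (adjusted p = 4.7e-05), where it was well above background on neither array, so that no fitted fold is given. Fam214a, 63.2 kb from Onecut1 on the other side, was lower in DIFF than in NoRX (-0.80, adjusted p = 2.21e-04). Sstr4, 348.4 kb from Foxa2, was also lower there (-0.45, adjusted p = 0.0202). Neither passed in CM against NoRX (adjusted p = 0.176 and 0.249).

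Among 11533 genes with a probe above background on all 8 arrays, those whose array profile was most like a member's, by the root mean square difference of centred log2 values, were Abhd6 for Hnf4a (0.0378), Slc25a37 for Foxa1 (0.144), Prdx2 and Ppp2r1b for the dimmer and brighter Foxa2 probes (0.0398 and 0.0475), Rbmx2 for Foxa3 (0.0463), Limk1 for Cebpa (0.0833), Trmt11 for Nr1h4 (0.0218), Gabarapl1 for Prox1 (0.0599) and Akap8 for Onecut1 (0.0821). Cdkn1b, which encodes the cell cycle inhibitor p27, was second for both Cebpa (0.104) and Prox1 (0.0634), whose own differences between media were alike. The median over all genes compared was 0.546 for Cebpa, 0.529 for Prox1 and 0.237 for Nr1h4, whose SD over the arrays was only 0.086. Values are therefore not comparable between members. The nearest of so many genes over 8 arrays lies close by selection, so these likenesses are descriptions only.

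Of 48 other liver transcription factor genes, 43 were tested on their brightest probe. In CM against NoRX 18 were higher and 11 lower, 14 missed the threshold and the median difference was 0.27, where 50% of all genes were called on their brightest probe, 25.7% higher and 24.3% lower. The RXR partner gene Rxra was 1.66 higher on the log2 scale, at relative signals of 1.44, 1.57 and 1.41 in CM and 0.464, 0.455 and 0.478 in NoRX. Nr1h3, the oxysterol receptor LXRα, was 1.03 higher and the clock repressor gene Nr1d1 0.87 higher, and Hnf4g, a close relative of Hnf4a, was at least 1.80-fold higher in CM against NoRX arrays not well above background, a call lost under 6 alternatives. Zhx3, 1 of the 11 lower, was not well above background in either group. Atf5 fell by 1.60, Rora by 1.49 and Ppara, the fatty acid sensor, by 1.19. In DIFF against NoRX 10 were higher and 17 lower, 16 missed the threshold and the median was -0.27, where 39.5% of all genes were called, 12.8% higher and 26.7% lower; with median centring 11 were higher and 11 lower. Klf15, a glucocorticoid-induced factor of fasting metabolism, was at least 68.3-fold higher in DIFF, with relative signals of 2.42 and 1.88, against NoRX arrays not well above background. Ppara was 2.01 higher in DIFF and Klf9 1.06 higher. Onecut3, a relative of Onecut1, fell by 3.38 in DIFF, at 0.107 and 0.0760 against 0.921, 1.01 and 0.890 in NoRX, and Gata4 by 1.54, Creb3l3 by 1.48 and the clock output gene Dbp by 1.39. In DIFF against CM 9 were higher and 23 lower, where 57.3% of all genes were called, 22.8% higher and 34.6% lower, and with median centring 13 were higher and 16 lower. Ppara stood 3.20 above CM and Onecut3 3.69 below it.

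**Figure D4:**
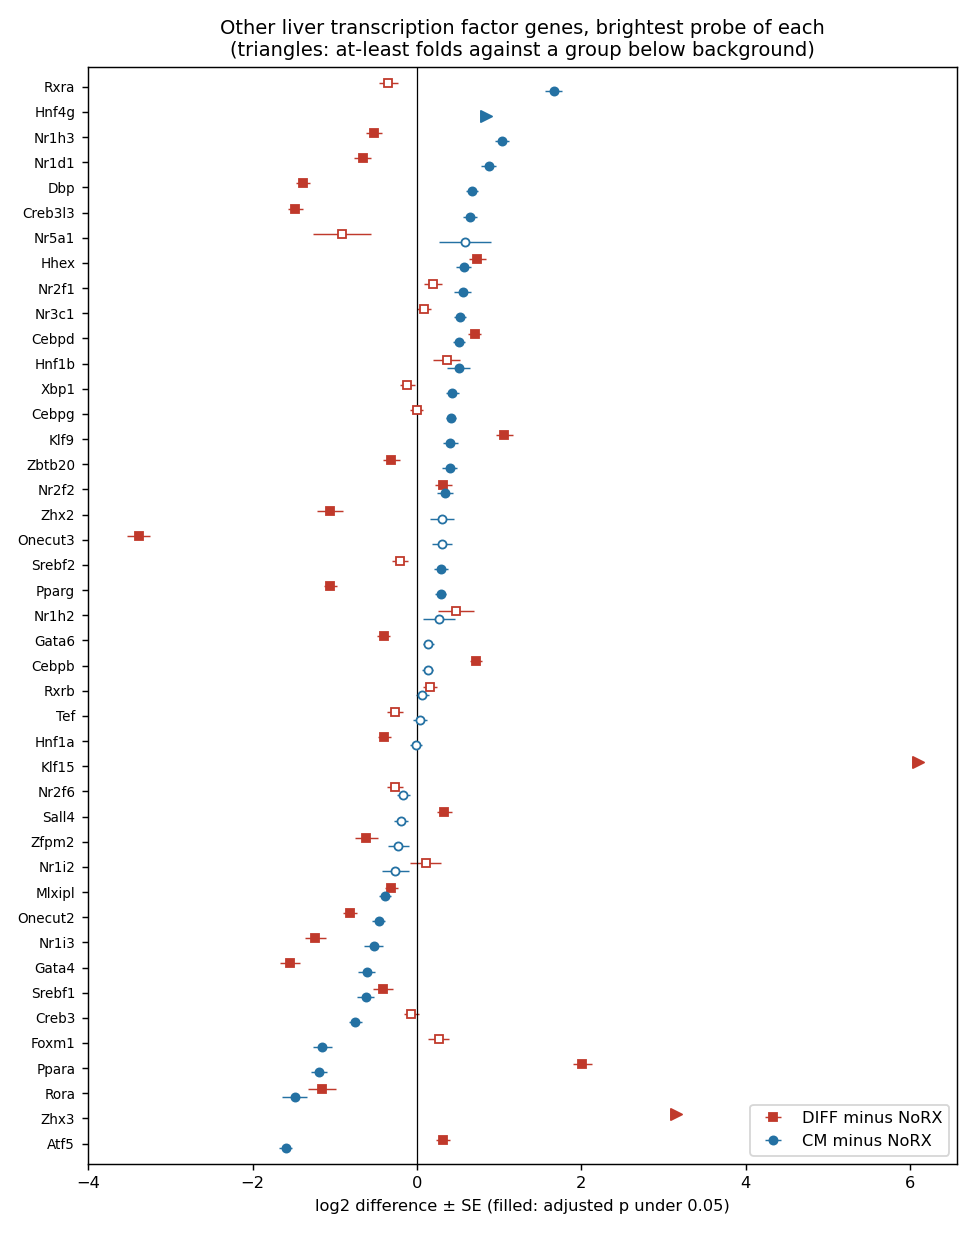
Log2 difference ± SE of the other liver transcription factor genes in DIFF minus NoRX (squares) and CM minus NoRX (circles), filled where the adjusted p was under 0.05; triangles give an at-least fold against arrays not well above background, and genes with both groups below background have no point. Rxra lies farthest right in CM minus NoRX, and the bounds of Klf15 and Zhx3, followed by Ppara, in DIFF minus NoRX.

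Of 15 coregulator genes, all tested, 1 was higher and 6 lower in DIFF against NoRX, where 12.8% of all genes were higher and 26.7% lower. In CM against NoRX 8 were higher and 4 lower, where 25.7% and 24.3% were; with median centring these counts were 2 and 2 in CM and 1 and 1 in DIFF. Ncor1, a corepressor of nuclear receptors, was 0.66 higher in CM than in NoRX (adjusted p = 8.64e-05). Trib1, which directs C/EBPα protein to degradation, was 0.77 higher in CM (adjusted p = 2.78e-05) and fell by 1.04 in DIFF (adjusted p = 8.08e-06), both against NoRX. Ppargc1a, a coactivator of HNF4A in fasting, was 1.12 higher in DIFF than in NoRX (adjusted p = 1.32e-04).

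Known target genes of HNF4A, FOXA and C/EBP proteins were mostly secreted liver proteins and metabolic enzymes, and 30 of 37 on the array were tested. In DIFF against NoRX 19 were higher and 3 lower, at a median of 1.86, and in CM against NoRX 12 were higher and 3 lower, at a median of 0.42. Igfbp1, 1 of the 12 higher in CM, was not well above background in either group, and its call was lost under 9 alternatives. In DIFF against CM 16 were higher and 6 lower. A gene detected on the 2 DIFF arrays alone entered the test, and such a gene could hardly be called lower in DIFF. Of the 37 genes, 28 were well above background on both DIFF arrays, 23 on all CM arrays and 20 on all NoRX arrays. The filter therefore bears on these counts and medians. The share called in CM against NoRX was that of all genes on their brightest probe (50%), while 39.5% of all genes were called in DIFF against NoRX, 12.8% higher, and 57.3% in DIFF against CM, 22.8% higher. Apoa1, the main protein of high-density lipoprotein, was at least 1347-fold higher in DIFF than in NoRX. Alb, the albumin gene, had relative signals of 46.5 and 36.4 in DIFF, 0.927, 0.695 and 0.976 in CM, and 0.121, 0.0928 and 0.0605 in NoRX, which is 8.87 higher in DIFF and 3.29 higher in CM than in NoRX. Ahsg, the fetuin gene, was at least 200.04-fold higher in DIFF and at least 29.5-fold higher in CM than in NoRX. Fgb, which encodes a fibrinogen chain, was at least 15.4-fold higher in DIFF and at least 5.60-fold higher in CM than in NoRX. Apob, the structural protein of very-low-density lipoprotein, fell by 1.69 in DIFF and by 1.65 in CM. Serpina1a and Serpina1e, paralogs that can share probe signal, fell by 1.07 and 0.84 in CM; both calls were lost with the row of the slide as a block, and both genes were higher in DIFF than in NoRX, by 2.97 and 3.13.

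Of 23 FXR and LRH-1 target genes on the array, 14 were tested. In CM against NoRX 6 were higher and 2 lower, and in DIFF against NoRX 4 were higher and 5 lower. In DIFF against CM 3 were higher and 8 lower. These counts stand against 50%, 39.5% and 57.3% of all genes called in the same order of comparisons, and in CM against NoRX the share was close to that of all genes. Of the 23 genes, 12 were well above background on all CM arrays, 10 on all NoRX arrays and 8 on both DIFF arrays. The filter bears on the counts of this list as well. Abcc2, a canalicular exporter of conjugates, was at least 5.29-fold higher in CM than in NoRX, Abcg5, a sterol exporter, was at least 8.81-fold higher in DIFF and at least 1.40-fold higher in CM, and Fabp6, an ileal bile acid carrier, was 2.37 higher in CM on the log2 scale. Fabp6 was lower in DIFF, at -1.13 against NoRX, a call lost under 8 alternatives, and at -3.50 against CM. Pltp, a phospholipid transfer protein, fell by 1.37 in DIFF against NoRX, a call lost with the row of the slide as a block. Baat, which conjugates bile acids, was at least 1.31-fold lower in DIFF than in CM, and Abcc2 stood at -2.45 there, well above background on 1 of the 2 DIFF arrays. The organic solute transporter gene Slc51a was at least 1.56-fold lower in CM, where it was not well above background, a call lost with the row of the slide as a block and with normexp. Nr0b2, the SHP corepressor induced by FXR, and Cyp7a1, the rate-limiting enzyme of bile acid synthesis, were among 7 genes well above background on no array.

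Markers of the labelled cells and of other cells were summed as signals relative to the 75th percentile, and the few brightest probes make up most of such a sum, so the number of genes called is given for the main lists. Among all genes on their brightest probe, 12.8% were higher and 26.7% lower in DIFF against NoRX. In CM against NoRX these shares were 25.7% and 24.3%. Of 14 hepatoblast and progenitor genes, 11 were tested, and their sum was 1089 to 1361 in DIFF, 1212 to 1310 in CM and 1566 to 1684 in NoRX. Of the 11, 2 were higher and 8 lower in DIFF against NoRX, and 5 higher and 4 lower in CM against NoRX. Afp, a hepatoblast marker, went against the sum. Its relative signals were 12.2 and 9.81 in DIFF, 3.51, 3.19 and 3.40 in CM, and 2.31, 2.58 and 2.31 in NoRX. Cd24a had 70.7 and 67.2 in DIFF against 33.9, 36.1 and 37.5 in NoRX. Igf2 and Gpc3 of that list were well above background on no array. Hepatocyte markers, several of which are also in the target list, summed to 190.0 to 244 in DIFF, 16.2 to 18.7 in CM and 11.5 to 11.8 in NoRX. Of 17 tested, 13 were higher and 4 missed the threshold in DIFF against NoRX, and 8 higher and 2 lower in CM against NoRX. Of the 19 hepatocyte markers on the array, 14 were well above background on both DIFF arrays, 13 on all CM arrays and 9 on all NoRX arrays. Markers detected in DIFF alone could enter the test, so the filter bears on these counts. The 19 cholangiocyte markers summed to 651 to 829 in DIFF, 435 to 442 in CM and 595 to 634 in NoRX, but of 18 tested only Krt7, Aqp1 and Tff3 were higher in DIFF than in NoRX and 9 were lower, with a median of -0.51. The water channel gene Aqp1 had relative signals of 196 and 146 in DIFF against 31.0, 26.5 and 26.3 in NoRX, and Tff3 177 and 141 against 4.01, 3.42 and 2.82, whereas Sox9 fell by 1.64 and Jag1 by 1.84. The 12 stellate and fibroblast markers summed to 0.307 to 0.414 in DIFF, 1.62 to 1.93 in CM and 0.760 to 0.792 in NoRX, with Lrat, Pdgfrb, Reln, Hand2 and Lum well above background on no array, and the 10 macrophage and leukocyte markers to 9.54 to 11.3, 15.9 to 16.6 and 15.1 to 16.6, with Adgre1 and Lyz2 among those on none. Endothelial markers summed to 15.4 to 18.1, 16.4 to 17.5 and 17.6 to 19.6, erythroid markers to 0.887 to 0.964, 0.494 to 0.757 and 0.690 to 0.902, and pancreas and intestine lineage factors to 11.6 to 12.8, 20.3 to 21.0 and 17.8 to 18.8, each in DIFF, CM and NoRX, with Tek, 4 erythroid genes and 5 lineage factors, Pdx1 among them, on none. Other genes of these lists did give signal. Itgam of the leukocyte list had relative signals of 8.69 and 7.46 in DIFF and 12.3, 11.7 and 12.7 in NoRX. Kdr of the endothelial list had 9.17 and 7.80 in DIFF and 11.1, 10.2 and 10.2 in CM. Des of the stellate list had 1.03, 1.01 and 1.00 in CM against 0.261, 0.280 and 0.253 in NoRX. Cdx2 of the lineage factors had 3.75, 3.30 and 3.94 in CM against 1.52, 2.00 and 1.77 in NoRX. The part of these shifts in the differences of the liver-enriched factors was not tested.

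**Figure D5:**
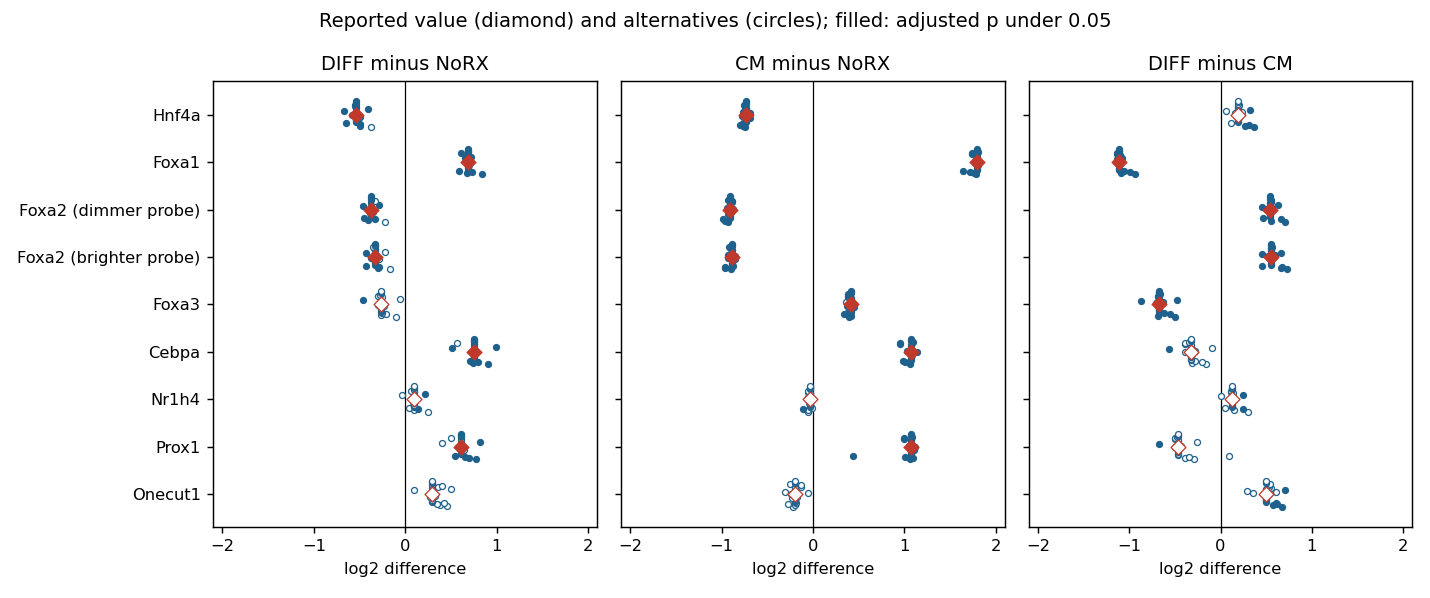
Log2 difference of each probe tested as reported (red diamond) and under each alternative (blue circles), filled where the adjusted p was under 0.05, in DIFF minus NoRX, CM minus NoRX and DIFF minus CM. Foxa1 and both Foxa2 probes keep filled symbols on one side of 0 in CM minus NoRX, with Foxa1 between 1.64 and 1.82, whereas in DIFF minus NoRX the Prox1 row mixes filled and open symbols between 0.40 and 0.82.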

How the data were processed

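Spot intensities were extracted with Agilent Feature Extraction 11.0.1.1, as named in the submitters' processing notes. The processed signal that the authors deposited is a linear intensity, background-subtracted and spatially detrended per the file headers. The series table held identical values (largest difference 0, column medians 22.2 to 31.3), so it is linear and uncentred. Control and outlier spots were dropped, spots of 1 probe averaged, and log2 signals taken minus each array's 75th percentile. Unversioned RefSeq accessions named 27235 of 55681 probes through a table of assembly GRCm38.p6; the array design used another build, so no probe coordinates are given. Probes well above background on at least 2 arrays (30356) entered 1 fit of all 8 arrays with limma 3.58.1 in R 4.3.3 (lmFit, eBayes with a mean-variance trend), with two-sided p-values adjusted by Benjamini-Hochberg over every probe fitted and a threshold of 0.05. Outlier spots left 116 missing values, none in a member. The number of arrays limits the precision. An at-least fold is given for a probe measured throughout one group and nowhere in the other: it sets the brighter mean against a floor, which on each dim array is that array's lowest signal well above background, or the probe's own signal if higher. The code was tested on simulated arrays.

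The members and lists were chosen with earlier results of these data known. Every member probe is given. From each other list, genes were named from up to 4 per direction and comparison with the largest difference past the test on the brightest probe; Nr0b2, Cyp7a1 and marker genes were named as not above background, and the DIFF values of the Serpina1 genes and the neighbouring genes after their values were seen. Alternatives covered scaling, background correction, probe filters, replicates, slide row, weights and the model. The planned correction on mean spot signals was not run, since the files used here hold none; normexp on median signals (offset 50) replaced it after the files were seen.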

Additional observations from a re-analysis of the deposited data

How the results depend on the processing

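Each member difference was recomputed under 22 to 24 alternatives. Of the 17 called, 11 kept their direction and their side of the threshold in each alternative run for them: all in CM minus NoRX except Foxa3, Foxa1 in DIFF minus NoRX, and all 4 in DIFF minus CM. The other 6 lost the call at least once, with the settings given beside them above, and 8 of 10 uncalled differences passed under at least 1. Of the uncalled, 2 turned sign: Nr1h4 in DIFF minus NoRX (-0.032 without DIFF 1, against 0.216 without DIFF 2) and Prox1 in DIFF minus CM with normexp on median signals (0.10). The causes were not tested. Member probes called in DIFF minus NoRX (6) were 3 with median centring, 1 with slide row as a block and 3 with array weights, and in DIFF minus CM (4) they were 7 with the 75th percentile of probes detected on all arrays. With 1 array left out they ranged from 6 to 7 in CM minus NoRX, 4 to 6 in DIFF minus NoRX and 4 to 7 in DIFF minus CM, the last without DIFF 2. Among all probes 12855 were called in CM minus NoRX, against 7326 with fewer probes tested (the brightest of each gene) and 7734 with slide row as a block; 9971 in DIFF minus NoRX, against 5909, 3825 and, with array weights, 5186; and 14970 in DIFF minus CM, against 8304 with the brightest probes and 9904 with array weights. Leaving out 1 array gave 10185 to 16736, 7651 to 15184 (the highest without DIFF 1) and 12793 to 17919. The split of higher and lower calls was 3055 and 6916 in DIFF minus NoRX and 5915 and 9055 in DIFF minus CM, against 3738 and 3611, and 7233 and 5832, with median centring. Without the filter on dim probes 1 Nr5a2 probe passed in DIFF minus CM (adjusted p = 0.0445) although below background in both. The deposited series table gave the same counts in all 3 comparisons.

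Whether the replicate numbers pair the arrays was not settled. Over 7 same-numbered pairs the correlation of deviations from the group means was -0.05 to 0.20, and 2 exceeded 0.1. Both of these were pairs of CM with DIFF, at 0.11 and 0.20. The 2 DIFF arrays deviate from their mean as mirror images, so their pairs do not count as separate evidence. With the replicate block 11786, 8363 and 13482 probes and 7, 5 and 4 member probes were called in CM minus NoRX, DIFF minus NoRX and DIFF minus CM. Probes near background, such as Prox1 and Onecut1, limit what small differences can be seen.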
